A study of Mus musculus with 8 samples.

Results

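The RNA exosome subunit genes Exosc1 to Exosc10 were examined in intestinal epithelial cells of the mouse colon. All 10 were found by symbol among the 55487 genes of the deposited table, and all 10 were high enough to test. RNA had been sequenced from 4 libraries labelled WT (wild type) and 4 labelled PIM1+/-, which denotes a heterozygous genotype of the serine/threonine kinase gene Pim1, all on the C57BL/6J strain. The sources used here do not give the age of the mice, the structure of the altered allele or whether each library came from a separate animal, so errors and p-values describe the spread between these libraries, which may be technical. The set was chosen by name as one complex, but selected on measured values as well, namely the TPM of its members in the same WT and PIM1+/- libraries, with the difference of Exosc6 already in view, so their genotype values are a description and carry no test.

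The RNA exosome is the main 3′ to 5′ RNA-degrading machine of eukaryotic cells. It trims ribosomal and small nucleolar RNA precursors in the nucleus and degrades faulty or short-lived RNAs in the nucleus and cytoplasm. In the human and yeast complexes, Exosc4 to Exosc9 form a ring of RNase PH-like proteins, Exosc1, Exosc2 and Exosc3 cap the ring with RNA-binding domains, and the ring itself does not cut RNA. Cutting is done by Exosc10, an RNase D-like exonuclease of the nucleus, and by the associated nucleases Dis3 and Dis3l. Exosc6, known as Mtr3, sits in the ring beside Exosc7.

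Exosc6 differs from the other subunit genes in its structure, and in 1 annotation it shares all of its bases with another gene. In the GENCODE M21 annotation of GRCm38, Exosc6 (ENSMUSG00000109941) is a single exon on the plus strand at chr8:111056339-111057664. The longest exon chains of the other subunit genes hold 3 to 25 exons. The alanyl-tRNA synthetase gene Aars (ENSMUSG00000031960) lies on the same strand at chr8:111033144-111057664 and ends at the same base. Its long coding transcript, of 5750 bases, has a last exon that runs on through Exosc6, so that all 1326 bases of the Exosc6 transcript are also bases of this Aars transcript, from base 4425 to its end. In RefSeq the Aars gene ends at 111055569, 769 bases before Exosc6 begins. The deposited gene IDs are Ensembl IDs, and 55141 of the 55487 are found in GENCODE M21. The sources used here do not name the annotation or the release that the authors used. The stretches below, 30 bases each, show the shared start codon of Exosc6 (in capitals, chr8:111056371-111056400, plus strand) and the shared 3′ end (chr8:111057635-111057664, plus strand) as read from each transcript model in the GENCODE M21 transcript sequences.
Exosc6 transcript, bases 33 to 62: ATGccgggagaccatcgccgcatccgcggg
Aars long transcript, bases 4457 to 4486: ATGccgggagaccatcgccgcatccgcggg
Exosc6 transcript, bases 1297 to 1326: gagttagaaacaatgctgttctgaactggg
Aars long transcript, bases 5721 to 5750: gagttagaaacaatgctgttctgaactggg

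**Figure D1:**
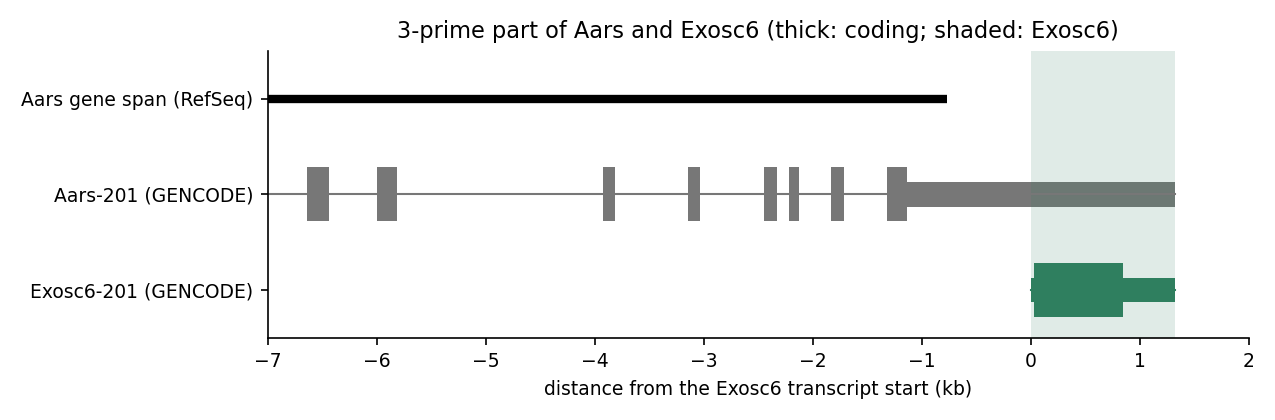
Transcript models at the 3′ end of Aars, plotted by distance in kilobases from the start of the Exosc6 transcript, with exons as boxes, coding parts thick and the Exosc6 stretch shaded. The last exon of the long Aars transcript in GENCODE covers the whole of Exosc6, whereas the RefSeq span of Aars stops 769 bases before it.

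The values were in TPM, transcript abundances per unit of length scaled to a fixed sum per library, so levels can be compared between genes. The sum of all listed TPM was between 990958 and 992187 in every library. This scale does not preserve the number of reads, and the sequencing depth is therefore unknown. Values of single libraries are given below in the order of replicates 1 to 4. A summed level of 12 epithelial markers ran from 20750 to 25990 TPM in WT and from 29400 to 35660 TPM in PIM1+/- libraries, without overlap. All 12 were tested, and 7 were called higher and 1 lower. The summed level of 6 smooth muscle markers did not exceed 1.49 TPM. The transcript named in the genotype, Pim1, measured 7.8 ± 1.46 TPM (SD, n = 4) in WT and 6.67 ± 1.12 TPM in PIM1+/- libraries and did not separate them.

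In WT libraries the subunits lay within a narrow band of levels. Exosc7 was highest at 29.2 ± 2.28 TPM (SD, n = 4) and Exosc4 lowest, at 12.0 to 14.9 TPM, with a ratio of 2.25 between the means. Between them, in falling order, were the cap gene Exosc3 at 28.2 ± 4.52, the ring gene Exosc5 at 23.9 ± 0.957, the nuclease gene Exosc10 at 22.1 ± 1.23 and the ring gene Exosc9 at 18.4 ± 2.41 TPM. Exosc6 followed in the middle of the order at 18.0 ± 3.33 TPM, ahead of the cap genes Exosc2 at 14.8 ± 2.57 and Exosc1 at 14.2 ± 2.07 and the ring gene Exosc8 at 13.2 ± 2.38 TPM. The ranges of every 2 neighbours in this order overlapped, so only genes farther apart in it were separated by their spread.

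Exosc6 was the subunit whose levels did not overlap between the genotypes. It measured 13.5, 19.6, 21.3 and 17.8 TPM in the WT libraries. In the PIM1+/- libraries it was listed at 0, 1.96, 6.48 and 8.3 TPM. Every PIM1+/- library was below every WT library, and the PIM1+/- libraries also differed widely among themselves. In each PIM1+/- library Exosc6 was the lowest of the 10 subunits, while in WT libraries it ranked between the fifth and the 9th. After log2 transformation with a pseudocount of 1, which makes changes of low values look smaller, the difference of PIM1+/- from WT was -2.31 ± 0.60 (SE, limma, 95% interval -3.67 to -0.95), and 7 of 12760 tested genes had a lower value. Adding 0.1 instead of 1 gave -3.28, and leaving out PIM1+/- replicate 1, the library at 0, gave -1.67. The value for the library at 0 may be a failed estimate, so no mean level is given for that genotype. In bulk samples, fewer cells of a type and less RNA per cell cannot be told apart.

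**Figure D2:**
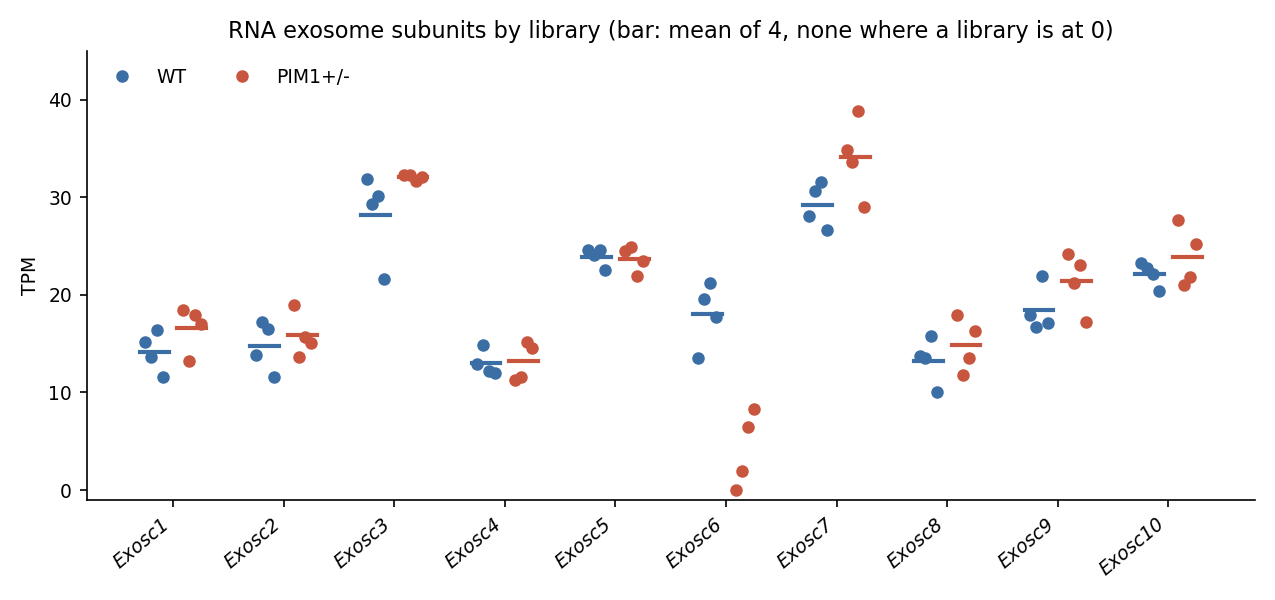
TPM of each exosome subunit in the 4 WT (blue) and 4 PIM1+/- (red) libraries, with a bar at the genotype mean except where a library is listed at 0. Exosc6 is the subunit whose genotypes do not overlap, at 13.5 to 21.3 TPM in WT and 0 to 8.3 TPM in PIM1+/- libraries.

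The other 9 subunits stayed close to their WT levels. Their log2 differences ran from -0.01 for Exosc5 to 0.22 for Exosc1, with 8 above 0 and 1 below, and a median of 0.16 against -0.01 over all tested genes. Summed over these 9 genes, the level was 153.5 to 191 TPM in WT and 183 to 210.2 TPM in PIM1+/- libraries, and the genotypes overlapped. At an adjusted p of 0.05 in the limma fit over all genes, 1 of the 10 subunits, Exosc6, was past the threshold as lower, where 8.54% of tested genes were past it as lower and 8.93% as higher. Exosc6 was likewise the 1 of 10 without overlap between genotypes, against 23.5% of tested genes. Both counts come from the contrast that put these genes forward and are given as a description. The call of Exosc6 was lost without WT replicate 1, 2, 3 or 4 or PIM1+/- replicate 2, without a filter on low values and with a pseudocount of 0.1, while its direction was the same in each of these.

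Among the ring genes, Exosc7, the ring neighbour of Exosc6, measured 28.04, 30.6, 31.6 and 26.7 TPM in the WT libraries. In the PIM1+/- libraries it measured 34.9, 33.6, 38.9 and 29.0 TPM, higher in 3 of 4 libraries than in any WT library but with overlap (0.21 ± 0.09). The ratio of Exosc6 to Exosc7 was 0.615 ± 0.0897 in WT libraries (SD, n = 4) and 0, 0.0583, 0.167 and 0.286 in the PIM1+/- libraries. Exosc9 (0.21 ± 0.12), Exosc8 (0.16 ± 0.15), Exosc4 (0.01 ± 0.11) and Exosc5 (-0.01 ± 0.06) overlapped between genotypes as well. Exosc5 had the smallest spread of the subunits in WT, at 22.5 to 24.6 TPM, and 21.9 to 24.9 TPM in PIM1+/- libraries. The sign for Exosc4 turned negative with upper quartile scaling and when mitochondrially encoded transcripts were left out of the scaling.

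The cap genes differed from WT by 0.22 ± 0.13 for Exosc1, 0.10 ± 0.14 for Exosc2 and 0.19 ± 0.11 for Exosc3. Exosc3 measured 31.9, 29.3, 30.1 and 21.6 TPM in the WT libraries and 31.7 to 32.3 TPM in PIM1+/- libraries, so that WT replicate 4 alone was far below the rest. The same WT library held the lowest value of its genotype for Exosc1, Exosc2, Exosc4, Exosc5, Exosc7, Exosc8 and Exosc10 and the lowest summed level of the 9 subunits. For the nuclease gene Exosc10 the WT range was 20.4 to 23.2 TPM and the PIM1+/- range 20.98 to 27.7 TPM (0.10 ± 0.09).

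**Figure D3:**
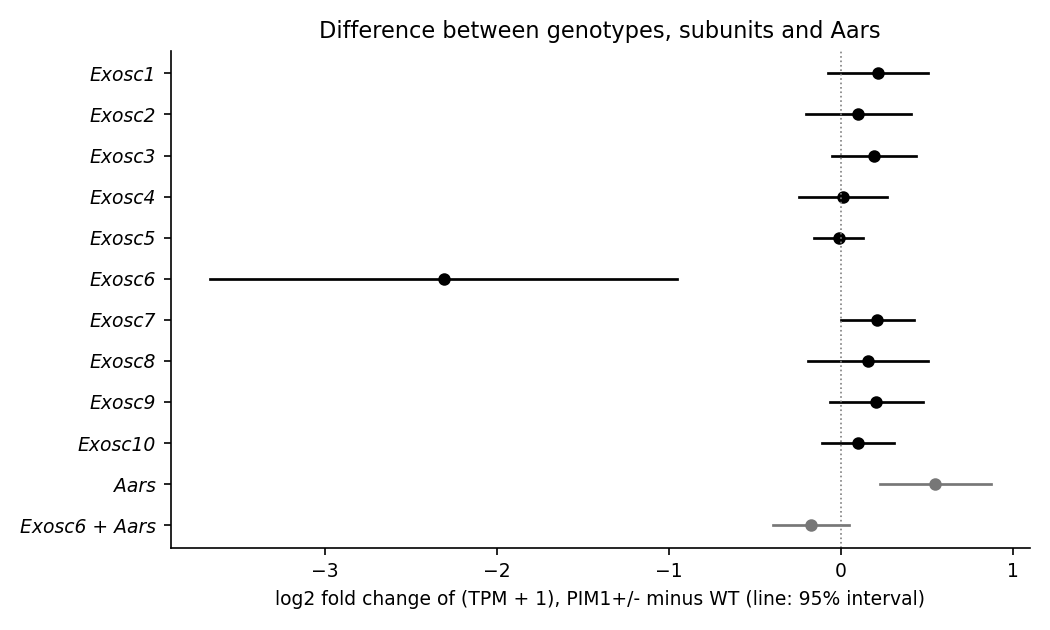
Log2 difference of TPM + 1 between PIM1+/- and WT libraries with its 95% interval from limma, for the 10 subunits, for Aars and for the sum of Exosc6 and Aars. The interval of Exosc6 lies at -3.67 to -0.95 and those of the other subunits include 0, as does that of the sum. That of Exosc7 includes 0 only just, at -0.001 to 0.42. Exosc6 was put forward from this same contrast, so its interval is a description and no test.

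Aars, whose GENCODE model holds every base of Exosc6, was higher in the PIM1+/- libraries, where Exosc6 was lower. Aars measured 18.1, 20.3, 18.3 and 17.8 TPM in the WT libraries and 37.8, 28.7, 23.2 and 23.2 TPM in the PIM1+/- libraries, with no overlap (0.55 ± 0.14, limma adjusted p = 0.03). The PIM1+/- library with Exosc6 at 0 had the highest Aars, and that with Exosc6 at 1.96 TPM the next highest. High values in the library with Exosc6 at 0 were not particular to Aars. It also held the highest PIM1+/- values of Exosc1, Exosc2, Exosc3, Exosc8, Exosc9 and Exosc10, though not of Exosc4, Exosc5 and Exosc7. Its summed level of the other 9 subunits was the highest as well, at 210.2 TPM. The WT libraries did not show this order. There the lowest Exosc6, 13.5 TPM in replicate 1, went with 18.1 TPM of Aars. The highest Aars, 20.3 TPM in replicate 2, went with 19.6 TPM of Exosc6. Aars was no longer past the threshold when WT replicate 1, 3 or 4 or PIM1+/- replicate 2 was left out (adjusted p 0.0668 to 0.0733) or when no filter was applied (0.0805).

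The sum of Exosc6 and Aars did not separate the genotypes. It came to 31.6, 39.9, 39.6 and 35.6 TPM in the WT libraries and to 37.8, 30.6, 29.7 and 31.5 TPM in the PIM1+/- libraries. The means were 36.7 ± 3.88 and 32.4 ± 3.7 TPM (SD, n = 4 each), and the log2 difference of the sum was -0.17 ± 0.10 (95% interval -0.39 to 0.05). Exosc6 made up 42.7 to 53.7% of the sum in WT libraries and 0, 6.4, 21.9 and 26.4% of it in the PIM1+/- libraries. The sum was put in place of Exosc6 only once these values were known. The difference from the mean of the other 9 subunits then went from -2.44 to -0.30 on the log2 scale. Adding any gene of like level that did not fall would also shrink this difference. TPM is scaled by length, and the GENCODE transcripts of Aars run from 426 to 5750 bases, where that of Exosc6 has 1326. What a move of reads between these genes would do to the sum was not tested. Whether Exosc6 and Aars share reads was not tested.

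**Figure D4:**
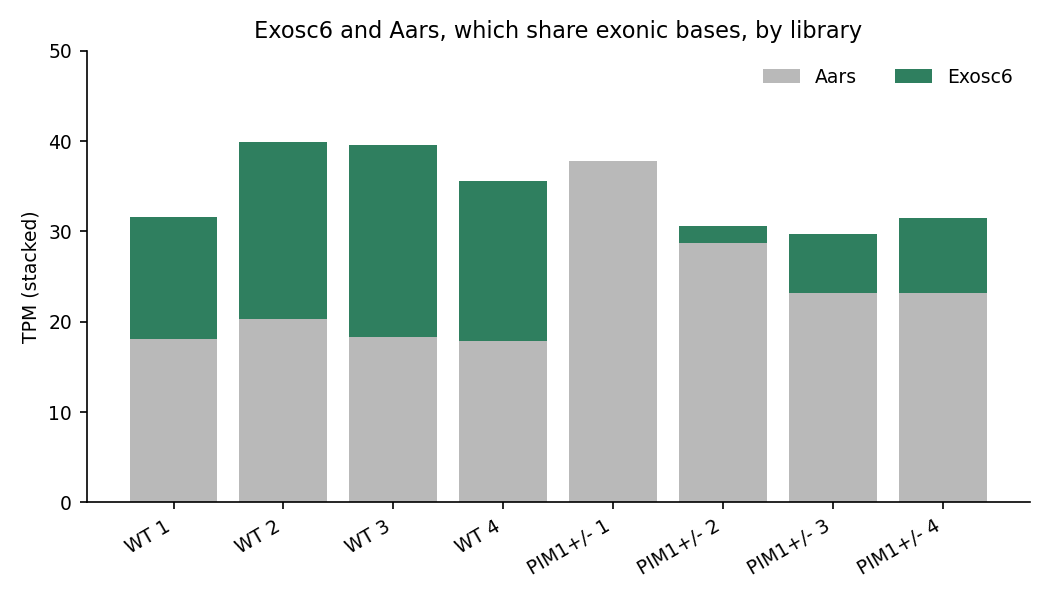
TPM of Aars (grey) and Exosc6 (green) stacked for each library. The stacks reach 31.6 to 39.9 TPM in WT and 29.7 to 37.8 TPM in PIM1+/- libraries, while the green part falls from 42.7 to 53.7% of the stack in WT to 0 to 26.4% in PIM1+/- libraries.

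Ddx19b, which in GENCODE lies before Aars on the other strand, measured 7.3 ± 0.572 TPM in WT and 7.23 ± 0.473 TPM in PIM1+/- libraries (-0.01 ± 0.09, limma adjusted p = 0.947). In RefSeq the Aars gene starts at 111027778, short of the GENCODE end of Ddx19b at 111031751, so those spans overlap. Clec18a, 1256 bases beyond Exosc6, did not exceed 0.04 TPM in any library, too low to show a pattern, and was not tested. The other subunit genes share 19.8% or less of their exonic bases with another gene, in each case one on the opposite strand, and the sources used here do not give the strand setting of the counting. Of those partners, Ccna2, Supt20, Dcaf10 and Oplah were tested, and none passed the limma threshold (adjusted p 0.149 to 0.998).

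By the root mean square distance between log2(TPM + 1) profiles over the 8 libraries, each centred on its own mean, the 5 protein-coding genes nearest to Exosc6 among 8909 were Tgm3, Cyp2c68, Insl5, Ppy and Cyp2c69. Their distances ran from 0.50 to 0.69, where the profile of Exosc6 itself had a root mean square of 1.47. Tgm3, a transglutaminase gene, measured 403, 314, 399 and 423 TPM in the WT libraries and 28.8, 88.2, 129 and 98.2 TPM in the PIM1+/- libraries. All 5 had their lowest value in PIM1+/- replicate 1, as Exosc6 did, which the choice by nearness to its profile favours. The genotypes overlapped for Ppy.

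The partners of the exosome were then examined over 24 genes, all of them tested. One passed the threshold, and it was lower, where 17.5% of all tested genes passed in either direction, and the list had a median log2 difference of 0.00 against -0.01 for all genes. It was Nop53, a nucleolar adaptor that in yeast brings the helicase to the exosome, which fell from 103, 131, 133 and 129 TPM in the WT libraries to 90.8, 93.4, 83.5 and 98.8 TPM in the PIM1+/- libraries (-0.43 ± 0.09, limma adjusted p = 0.0129). The catalytic partner gene Dis3 measured 5.35 to 9.95 TPM in WT and 4.68 to 8.14 TPM in PIM1+/- libraries (-0.16 ± 0.20, adjusted p = 0.639). Dis3l, its cytoplasmic relative, measured 8.23 to 8.89 and 7.79 to 9.49 TPM (0.07 ± 0.08, adjusted p = 0.631). Mtrex, the nuclear helicase that feeds RNA into the complex, measured 16.5 to 20.5 and 16.0 to 20.8 TPM (-0.05 ± 0.10, adjusted p = 0.768).

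Other routes of RNA decay held a few genes past the threshold. Counted in either direction, their shares were near those of all tested genes. Of 19 genes of 5′ to 3′ decay 3 were higher and 1 lower, 21.1% in all against 17.5% of all tested genes. The split was 2 higher and 2 lower with upper quartile scaling, and 1 higher and 2 lower with mitochondrially encoded transcripts left out of the scaling. The decapping cofactor gene Dcp1b fell from 12.0 to 14.7 TPM in WT to 6.59 to 9.11 TPM in PIM1+/- libraries (-0.71 ± 0.10, limma adjusted p = 0.00246). Lsm3 (0.33 ± 0.08, adjusted p = 0.0264), Lsm4 (0.23 ± 0.07, adjusted p = 0.0463) and Lsm7 (0.23 ± 0.07, adjusted p = 0.0464), subunits of the ring that binds deadenylated RNA and of the spliceosomal Lsm ring, rose. The 3 Lsm calls were not held by the fit without a filter or with a block on replicate number, which left 1 gene of this list past the threshold.

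Of 19 deadenylation genes 3 were lower and 0 higher, which is 15.8%. Of all tested genes 8.54% were called lower and 17.5% in either direction. At an unadjusted limma p under 0.05, 7 of the 19 were lower and 0 higher, against 2055 lower and 2077 higher of all 12760. Pan3, a subunit of the PAN2-PAN3 deadenylase, fell by 0.33 ± 0.07 on the log2 scale (limma adjusted p = 0.0101). Tob1 and Btg1, antiproliferative proteins that recruit the CCR4-NOT deadenylase, fell by 0.29 ± 0.06 (adjusted p = 0.0169) and 0.54 ± 0.13 (adjusted p = 0.0227). The number of lower genes in this list was 6 with upper quartile scaling, where 1520 of all 12760 tested genes were lower. It was 7 with mitochondrially encoded transcripts left out of the scaling, where 1568 of 13046 were lower, compared with 1090 of 12760 in the reported fit. Of 15 nonsense-mediated decay genes 1 was higher and 1 lower, 13.3% against 17.5% of all tested genes. Magoh, of the exon junction complex, rose (0.36 ± 0.08, adjusted p = 0.0167) and the endonuclease gene Smg6 fell, from 11.7 to 14.2 TPM in WT to 8.52 to 9.35 TPM in PIM1+/- libraries (-0.52 ± 0.08, adjusted p = 0.00334).

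The genes that make or carry exosome substrates were examined last. Of 32 ribosomal RNA processing genes limma called 0, with 5 higher and 1 lower at an unadjusted p under 0.05 and a median of 0.14. Of all 12760 tested genes limma called 17.5%, and 2077 were higher and 2055 lower at an unadjusted p under 0.05, so these counts were not above the background. Those with the smallest p were Rrp12 (0.48 ± 0.16, adjusted p = 0.0713) and Nhp2 (0.31 ± 0.11, adjusted p = 0.0837). Of 18 tested snoRNA host genes 1 was called, as lower, which is 5.56% against 8.54% of all tested genes called lower. It was Gas5, which fell from 340 to 435 TPM in WT to 257 to 319 TPM in PIM1+/- libraries (-0.37 ± 0.09, adjusted p = 0.0227), and the list median was -0.16. Gas5 was no longer past the threshold when WT replicate 1 or 3 or PIM1+/- replicate 2 was left out, or when no filter was applied.

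**Figure D5:**
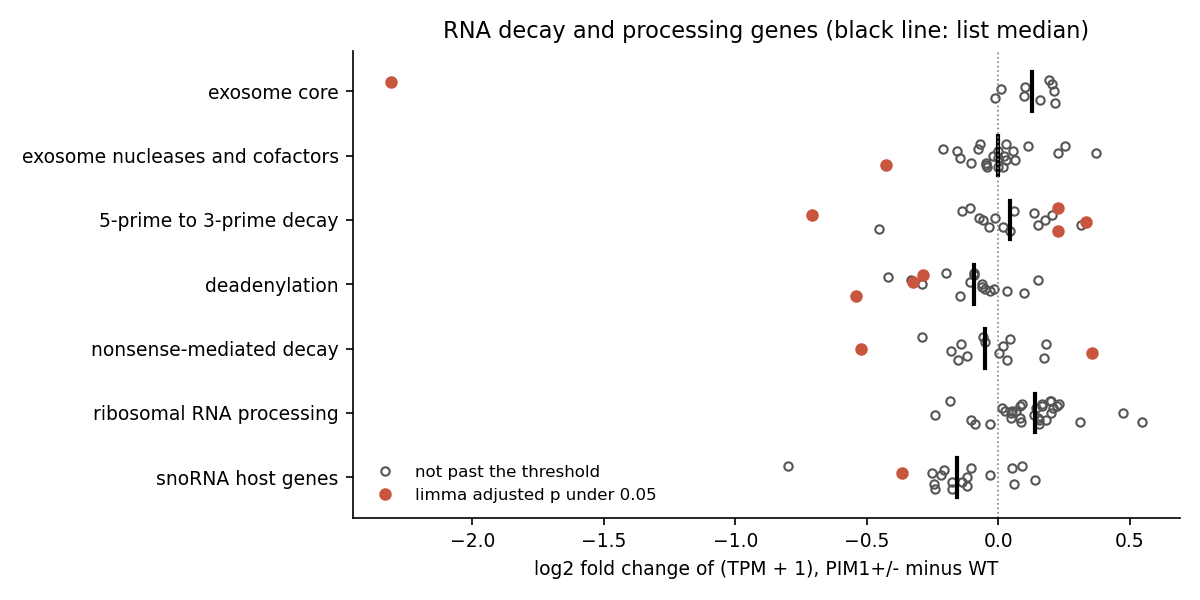
Log2 difference of TPM + 1 between PIM1+/- and WT libraries for the tested genes of 7 lists, with genes past the limma threshold filled and the list median as a black line. Exosc6, at -2.31, stands far below the other genes of these lists, whose medians run from -0.16 to 0.14.

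Several measures moved with genotype beside these results. Among them was the summed level of epithelial markers given above, higher in every PIM1+/- library than in any WT library. The summed level of 20 interferon-stimulated genes was 183 to 268 TPM in WT and 1236 to 2151 TPM in PIM1+/- libraries, and all 20 rose. The summed level of 13 T and NK cell markers, of which 10 were tested and 8 rose, was 13.4 to 27.9 and 48.3 to 114 TPM. That of 12 myeloid markers, of which only 2 were high enough to test and 1 rose, was 1.88 to 4.67 and 8.59 to 12.2 TPM. The summed level of 7 fibroblast markers, of which 1 was tested and rose and 1 was at 0 in every library, was 0.69 to 1.53 and 3.64 to 11.5 TPM. None of the 13 T and NK cell markers and 1 of the 12 myeloid markers was at 0 in every library. Mitochondrially encoded transcripts took 16.1 to 18.4% of TPM in WT and 12.5 to 13.7% in PIM1+/- libraries. The part of these measures in the Exosc6 result was not tested.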

How the data were processed

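The authors deposited one table of TPM per gene, rounded to hundredths. RSEM quantified the genes, per the design text, and the build GRCm38.p6 and the tools HISAT2, StringTie and edgeR appear in the submitters' processing notes, without roles. RSEM divides reads that several transcripts share by estimation, so the division between genes with common bases is uncertain. Columns were matched to samples by genotype and replicate number.

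The R package limma 3.58.1 (R 4.3.3) compared the genotypes on log2(TPM + 1), two-sided and with an intensity trend in the variance prior. It covered the 12760 genes that reached 1 TPM in 4 or more of the 8 libraries, with Benjamini-Hochberg adjustment over all of them and a threshold of 0.05. Intervals are 95% intervals from that fit. GENCODE M21 held 55141 of the listed gene IDs and gave positions, exons and transcript sequences. The fit was checked on simulated data with known changes.

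The subunits and gene lists were chosen with earlier results of these data known. Named genes were all subunits, of each other list the members past the threshold up to 6 (or the 2 with the smallest p), Dis3, Dis3l and Mtrex, the 5 nearest profiles among protein-coding genes of mean at least 5 TPM, overlapping and neighbouring genes, and Pim1. Snhg4 is listed under more than 1 gene ID and was taken at the higher one. The marker lists of B and plasma cells (0 of 2 tested called) and endothelium (0 of 2) were counted too, at summed levels of at most 14.5 and 5.76 TPM. Alternatives are those given in the closing section. Figures were drawn with matplotlib 3.10.9.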

Additional observations from a re-analysis of the deposited data

How the results depend on the processing

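Over all genes 1139 were higher and 1090 lower (51.1% of calls higher), against 926 and 1520 with upper quartile scaling (37.9%) and 856 and 1568 with mitochondrially encoded transcripts left out of the scaling (35.3%). The total was 2229 genes, 1439 without a filter, 1449 with a replicate block and 1374 to 2050 with single libraries left out, lowest without WT replicate 1 and then WT replicate 4 (1416). The number of exosome subunits called was 0 without a filter, 0 with a pseudocount of 0.1, and 0 to 1 with single libraries left out. The log2 difference of Exosc6 was -2.74 to -1.67 with single libraries left out and -3.28 with a pseudocount of 0.1, and its difference from the other 9 subunits, -2.44, was -2.88 to -1.77 with single libraries left out and -0.30 with Exosc6 and Aars summed. That difference moved by less than its spread with the median of the other 9 subunits, the 5 other ring subunits or Exosc7 alone as the reference. Signs near 0 turned for Exosc4 (-0.032 with upper quartile scaling, -0.044 without mitochondrially encoded transcripts, and -0.056 to 0.077 with single libraries left out), Exosc2 (-0.0039 to 0.17 with single libraries left out) and Exosc5 (-0.041 to 0.023). Calls among cofactors were 2 at a mean of at least 5 TPM and 1 to 2 with single libraries left out (2 without WT replicate 3). Calls in 5′ to 3′ decay were 4 with upper quartile scaling, 3 without mitochondrially encoded transcripts, 1 without a filter, 2 without the trend, 1 with a replicate block and 1 to 5 with single libraries left out (1 or 2 without any single library other than WT replicate 3). Deadenylation calls were 6 with upper quartile scaling, 7 without mitochondrially encoded transcripts and 2 to 5 with single libraries left out (5 without PIM1+/- replicate 1). Nonsense-mediated decay calls were 4 with upper quartile scaling and 4 without mitochondrially encoded transcripts. Ribosomal RNA processing calls were 1 in both scalings and 0 to 1 with single libraries left out (1 without WT replicate 2 or PIM1+/- replicate 2). Calls among snoRNA host genes were 0 without a filter, 2 with a replicate block and 0 to 2 with single libraries left out (2 without WT replicate 4). The replicate numbers showed no sign of pairing. Deviations of same-numbered libraries from their genotype means correlated at -0.14 to 0.032 across genes. No WT library correlated best with the PIM1+/- library of its own number. These correlations cannot show that same-numbered libraries had no batch in common. With the block, Exosc6 (-2.31) stayed past the threshold. The cause of these changes was not tested. TPM keeps no depth, so the counting error of low values such as Exosc6 at 1.96 TPM is unknown.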

Other observations

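Other aminoacyl-tRNA synthetase genes were looked at beside Aars, as a list chosen after the values were seen. Of 19 other cytosolic synthetase genes 4 rose and 0 fell (Nars at 0.50 ± 0.11, Wars at 0.42 ± 0.09, Rars at 0.40 ± 0.08 and Gars at 0.25 ± 0.07, limma adjusted p 0.0114 to 0.0331), with a median of 0.17. That is 21.1% called, all higher, against 8.93% of all tested genes called higher and 17.5% called in either direction. At an unadjusted limma p under 0.05, 8 of the 19 were higher and 0 lower. Of all 12760 tested genes, 2077 were higher and 2055 lower at that level. Nars measured 74.4, 79.1, 76.5 and 66.6 TPM in the WT libraries, in replicate order, and 131, 108, 91.7 and 94.4 TPM in the PIM1+/- libraries. As for Aars, the highest values of Nars, Rars, Gars and Wars were in PIM1+/- replicate 1, the library in which Exosc6 was listed at 0.

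Among 7470 tested genes with a median of at least 10 TPM, 25 were listed at 0 in at least 1 library, and 2 of these 25 were annotated as protein-coding. These were Exosc6 and AL731706.2, and every exonic base of each lies in exons of another gene on the same strand, Aars and Mkks. Most of the 25, such as Snord118 and Psenen-ps, share no exonic bases with another gene on the same strand, so listing at 0 was not particular to contained genes. AL731706.2 was listed at 0, 0, 69.6 and 130 TPM in the WT libraries, in replicate order, and at 57.6, 31.3, 142 and 26.2 TPM in the PIM1+/- libraries. In all, 10 tested protein-coding genes are contained in this way, some of them in a further gene ID of the same symbol, and 3 of the 10 were past the limma threshold, against 17.9% of all tested protein-coding genes. Exosc6 is 1 of these 3 and was known to differ before contained genes were counted, so the count is a description and no sign of an excess. Besides Exosc6, Trex1 within Atrip (1.34 ± 0.16, adjusted p = 0.00102) and Rsc1a1 within Ddi2 (adjusted p = 0.00465, at 1.55 to 3.55 TPM in WT and 5.8 to 6.69 TPM in PIM1+/- libraries) were past the limma threshold, both higher, while their partners differed by 0.01 and -0.24. Single-exon protein-coding genes, of which Exosc6 is one, numbered 239 among those tested, with 11 higher and 39 lower and a median of -0.07. That is 20.9% called, where 1085 of all 11490 tested protein-coding genes were higher and 977 lower.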
